A study of Mus musculus with 7 samples.

Results

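The PDGF family was read in cells sorted from gliomas as 6 genes, the ligands Pdgfa, Pdgfb, Pdgfc and Pdgfd and the receptors Pdgfra and Pdgfrb. They were taken by gene symbol from a table of 18193 genes that had at least 1 array probe annotated to a single symbol, and they held 14 of its 34945 such probes. Each gene was represented by its brightest probe on average, and the other 8 probes are given beside it. The values are log2 expression on Affymetrix mouse arrays, so a difference of 1 is a doubling.

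All 7 samples were EGFP-positive cells of C57/Bl6 gliomas, labelled with overexpression of PDGF-B and EGFP, that had grown in NOD/SCID mice, a strain without functional B and T lymphocytes. PDGF-B and EGFP were encoded by 1 bicistronic transcript, and EGFP was used to sort the cells by flow cytometry. Secondary gliomas (n = 4) arose from grafted cells of early onset, low grade primary gliomas, and tertiary gliomas (n = 3) arose when a secondary glioma was grafted again. The sources used here do not give the vector, its promoter, the ages of the mice or the primary tumour behind each sample, and p-values measure the spread between these samples. There was no group without the transgene.

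Platelet-derived growth factors are secreted dimers that bring pairs of receptor tyrosine kinases together. The A and B chains are cut to their active form inside the cell, whereas the C and D chains leave it with a CUB domain that extracellular proteases must remove. PDGF receptor alpha binds the A, B and C chains and marks oligodendrocyte precursors, the glial progenitors that divide in response to PDGF-A. PDGF receptor beta binds the B and D chains and is characteristic of pericytes and other mural cells. Overexpression of PDGF-B in glial progenitors is a standard way to induce glioma in mice.

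The promoter windows of Pdgfa, which was lower in tertiary gliomas, and of Pdgfra, the receptor that hardly varied, are shown to set a pair of members with different behaviour side by side. Each runs 5′ to 3′ on the gene's own strand from 250 bases before to 50 bases after a RefSeq start in assembly GRCm38.p6, and capitals mark the searched motifs. The Pdgfa windows lie on the minus strand at chr5:138994232-138994531 and chr5:138994895-138995194, and the Pdgfra window lies on the plus strand at chr5:75152001-75152300.
Pdgfa, start 1: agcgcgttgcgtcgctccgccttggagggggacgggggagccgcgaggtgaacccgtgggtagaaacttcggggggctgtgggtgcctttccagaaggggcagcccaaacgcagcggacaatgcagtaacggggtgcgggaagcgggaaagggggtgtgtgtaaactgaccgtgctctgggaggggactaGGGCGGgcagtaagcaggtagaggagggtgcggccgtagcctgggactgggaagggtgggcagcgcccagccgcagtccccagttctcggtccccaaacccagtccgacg
Pdgfa, start 2: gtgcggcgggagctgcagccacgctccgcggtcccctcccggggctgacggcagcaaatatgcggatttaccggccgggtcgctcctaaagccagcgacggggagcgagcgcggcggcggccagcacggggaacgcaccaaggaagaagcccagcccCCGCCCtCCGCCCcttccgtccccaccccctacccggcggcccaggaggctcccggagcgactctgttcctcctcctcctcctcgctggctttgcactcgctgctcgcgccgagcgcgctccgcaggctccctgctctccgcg
Pdgfra: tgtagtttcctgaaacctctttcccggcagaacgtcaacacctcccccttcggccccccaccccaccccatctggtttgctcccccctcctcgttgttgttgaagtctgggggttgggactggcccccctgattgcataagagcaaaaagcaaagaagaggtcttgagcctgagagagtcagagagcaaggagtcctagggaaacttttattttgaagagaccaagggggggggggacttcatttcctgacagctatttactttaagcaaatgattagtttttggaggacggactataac
The motifs were the TATA box as the letters TATAAA, the CCAAT box as those letters, the GC box as GGGCGG, the E-box as CACGTG and the AP-1 site as the letters TGANTCA. Each was searched on both strands, and no match overlapped another in these windows. The GC box stood 1 time in the first Pdgfa window and 2 times in the second, and 35.7% of 32851 windows of this length held it on either strand. None of the 5 motifs was in the Pdgfra window. The shares of all windows were 13.6% for the TATA box, 37.4% for the CCAAT box, 7.15% for the E-box and 7.81% for the AP-1 site.

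The arrays were alike in scale, with medians between 5.57 and 5.64, and any 2 of them correlated at 0.917 to 0.987 over all probes. A dim filter at the 25th percentile of probe means, a log2 value of 3.99, left 14453 genes to test. Secondary glioma 3 resembled the tertiary arrays least, with a mean correlation of 0.919 against 0.946 to 0.955 for the other secondary arrays. Of 11 measured oligodendrocyte precursor markers, the progenitor from which such gliomas are thought to arise, none lay under the filter throughout a group.

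Among the ligands, Pdgfb and Pdgfa fell between the secondary and the tertiary gliomas, Pdgfc varied widely without a call and Pdgfd stayed under the filter. Neither receptor was called. Of the 5 PDGF genes that passed the filter, 2 were therefore lower, where 6.33% of all genes tested were called lower, 1.04% higher and 7.38% in either direction by limma with Benjamini-Hochberg adjustment. At an unadjusted p under 0.05 these were also the only 2, against 23.8% of all genes. The question put to each gene was whether its level differed between gliomas of the first and the second transplant.

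Pdgfb, the ligand chain that drives these tumours as a transgene, had the clearest difference. Its brighter probe (1450413_at) read 6.56, 7.34, 7.61 and 7.22 in secondary gliomas 1 to 4 and 5.52, 5.31 and 5.71 in tertiary gliomas 1 to 3. All 3 tertiary values lay below all 4 secondary ones, as they did for 11.2% of all genes tested, and the groups were apart in either direction for 21.9%. The log2 mean fell from 7.18 ± 0.45 (SD, n = 4) to 5.51 ± 0.20 (SD, n = 3), a 3.19-fold lower level in tertiary gliomas. The log2 fold change was -1.67 ± 0.25 (SE; adjusted p = 0.00570 in limma), with a 95% interval from -2.25 to -1.09. With any 1 sample left out it remained called, at -1.88 to -1.53.

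The second Pdgfb probe (1450414_at) gave the same order. It read 5.65, 5.97, 7.15 and 5.73 in the secondary gliomas and 3.86, 3.46 and 3.86 in the tertiary gliomas, where every value was under the dim filter. The groups did not overlap, and no size or test is given for this probe, since it passed the filter only in the secondary gliomas. Secondary glioma 3 was highest with both probes. Whether the transgene carries the mouse sequence, and whether these probes lie inside the part it encodes, the sources used here do not say, so the probes do not check the labelled overexpression and transgene and endogenous transcript cannot be told apart.

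**Figure D1:**
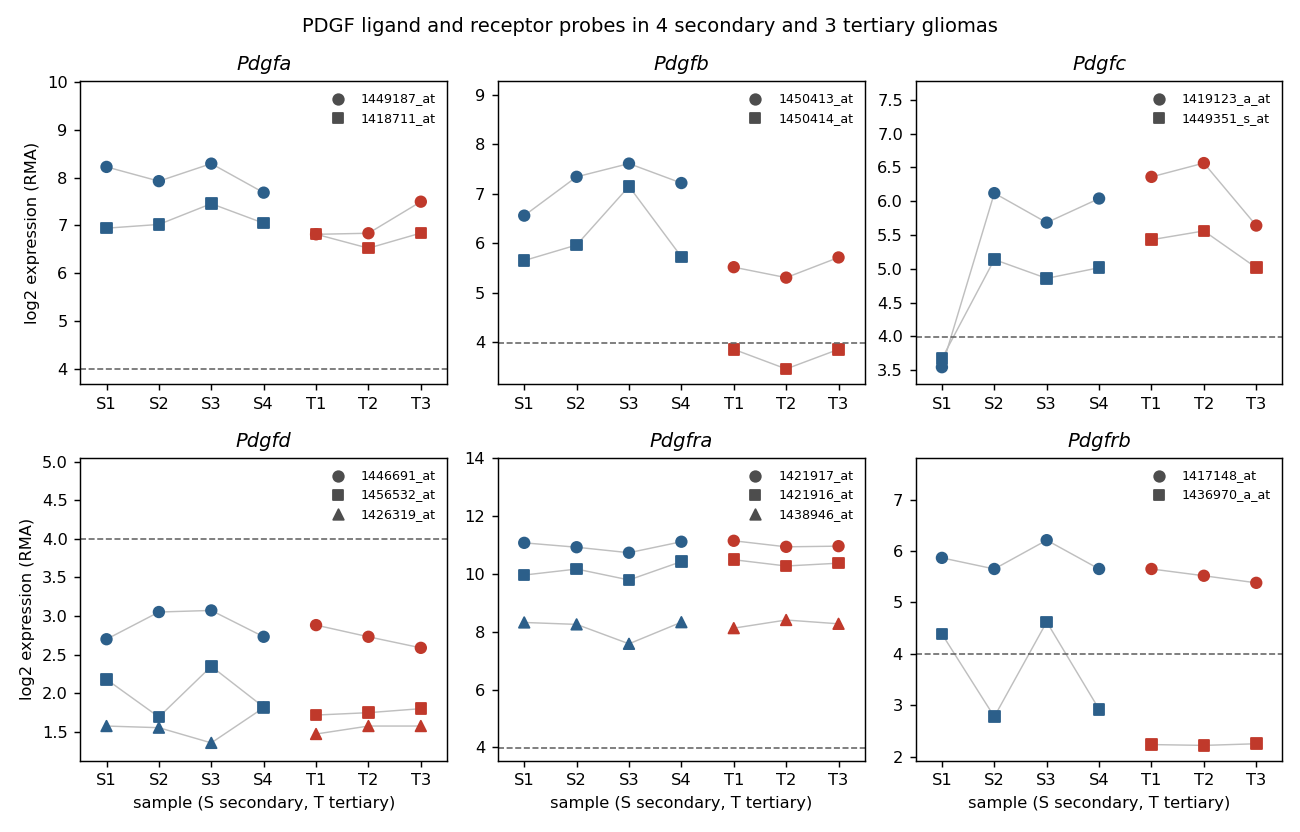
Log2 expression (vertical axes, with a range of its own in each panel) of all 14 probes of the 6 PDGF genes in secondary gliomas 1 to 4 (S, blue) and tertiary gliomas 1 to 3 (T, red). Each marker shape is a probe, thin lines join the samples of a group only to guide the eye, and the dashed line is the dim filter at 3.99. The tertiary points of the brighter Pdgfb probe lie below all its secondary ones, and those of Pdgfra do not. All tertiary points of the second Pdgfb probe lie under the dim filter.

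Pdgfa, the ligand that neurons and astrocytes supply to oligodendrocyte precursors, was lower by a smaller amount. Its brighter probe (1449187_at) read 8.23, 7.93, 8.29 and 7.69 in the secondary gliomas and 6.81, 6.84 and 7.50 in the tertiary gliomas. The groups did not overlap, and tertiary glioma 3 and secondary glioma 4 were the nearest of them. The log2 mean went from 8.03 ± 0.28 (SD, n = 4) to 7.05 ± 0.39 (SD, n = 3). The log2 fold change was -0.98 ± 0.23 (SE; adjusted p = 0.0420 in limma), 1.98-fold lower in tertiary gliomas, with a 95% interval from -1.51 to -0.45. The other probe (1418711_at) also did not overlap between groups, at 6.94 to 7.46 against 6.52 to 6.84, but its difference of -0.39 ± 0.16 (SE) was not called in a limma fit of every probe with no dim filter (adjusted p = 0.237), where the brighter probe had an adjusted p of 0.0605. With each probe above the dim filter tested on its own, the brighter probes of Pdgfa and Pdgfb were both called, as were 5.85% of 27501 probes.

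The call of Pdgfa was close to the threshold and depended on single samples. Its adjusted p in limma rose to 0.0947 when secondary glioma 1 was left out, to 0.0881 for secondary glioma 2 and to 0.102 for secondary glioma 3. Leaving out tertiary glioma 1 gave 0.0729 and tertiary glioma 2 gave 0.155. It was also lost with all probes averaged (adjusted p = 0.0553), while the sign stayed negative in all 19 alternatives.

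Pdgfc, a ligand of the alpha receptor that must be activated outside the cell, had the largest spread of the 6 genes, with a within-group SD of 0.99 against a median of 0.27 over all genes tested. Its brighter probe (1419123_a_at) read 3.54, 6.12, 5.68 and 6.04 in the secondary gliomas and 6.36, 6.57 and 5.64 in the tertiary gliomas. Secondary glioma 1 stood alone under the dim filter, and the other 6 samples lay between 5.64 and 6.57. The second probe (1449351_s_at, which may detect several transcripts) showed the same low sample, at 3.67 against 4.86 to 5.56 elsewhere. The log2 fold change was 0.84 ± 0.62 (SE; adjusted p = 0.444 in limma), with a 95% interval from -0.59 to 2.27, and it was 0.24 without secondary glioma 1 (adjusted p = 0.636).

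Pdgfd, the ligand of the beta receptor, was not above the dim filter in any sample. Its 3 probes (1446691_at, 1456532_at and 1426319_at) ranged from 2.59 to 3.07, from 1.69 to 2.35 and from 1.36 to 1.81 over the 7 samples. The groups overlapped with each probe. No difference is given for Pdgfd, because both groups were under the filter.

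Pdgfra, the receptor of oligodendrocyte precursors, was steady. Its brightest probe (1421917_at) read 11.07, 10.92, 10.73 and 11.11 in the secondary gliomas and 11.15, 10.94 and 10.96 in the tertiary gliomas. The groups overlapped, the whole range was 0.41 and the within-group SD was 0.15. The log2 fold change was 0.05 ± 0.14 (SE; adjusted p = 0.858 in limma). Its 95% interval ran from -0.28 to 0.39, which bounds the tertiary level between 0.824 and 1.31 times the secondary level. The sign was negative without secondary glioma 3 and without tertiary glioma 1.

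The other Pdgfra probes overlapped between groups as well. Probe 1421916_at ranged from 9.79 to 10.43 in secondary and from 10.27 to 10.49 in tertiary gliomas, a difference of 0.29 ± 0.17 (SE; adjusted p = 0.380 in the limma fit of every probe with no dim filter). Probe 1438946_at ranged from 7.58 to 8.33 and from 8.12 to 8.41, a difference of 0.15 ± 0.21 (SE; adjusted p = 0.742). With each of the 3 Pdgfra probes the lowest sample was secondary glioma 3. It also had the lowest mean of the oligodendrocyte precursor markers, 9.73 against 9.92 to 10.29 in the other samples, and the part of these markers in the Pdgfra values was not tested.

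Pdgfrb, the mural cell receptor that can also bind PDGF-B, was not called. Probe 1417148_at read 5.87, 5.65, 6.21 and 5.65 in the secondary gliomas and 5.65, 5.52 and 5.38 in the tertiary gliomas. Secondary glioma 3 was highest and the groups met at 5.65. The log2 fold change was -0.33 ± 0.17 (SE; adjusted p = 0.295 in limma), with a 95% interval from -0.73 to 0.08. The second probe (1436970_a_at) passed the filter only in secondary gliomas 1 and 3, at 4.39 and 4.62, and lay between 2.22 and 2.25 in the tertiary gliomas. With both probes averaged the difference was -0.89, which was still not called (adjusted p = 0.123).

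**Figure D2:**
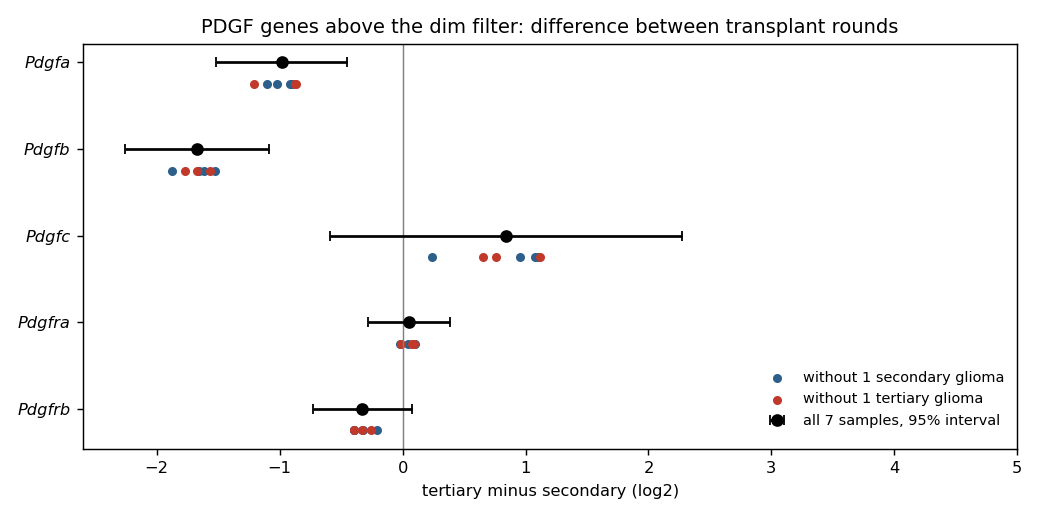
Difference between tertiary and secondary gliomas (horizontal axis, log2) for each PDGF gene above the dim filter, with 95% intervals from limma as black bars and, underneath, the same difference with 1 secondary (blue) or 1 tertiary (red) glioma left out. The intervals of Pdgfb and Pdgfa lie below 0, that of Pdgfc runs from -0.59 to 2.27, and that of Pdgfra is the narrowest of the 5 genes.

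Whether members of a kind changed by different amounts was tested on the difference of their probes within each array. The receptors' difference, Pdgfra minus Pdgfrb, was 5.11 ± 0.41 (SD, n = 4) in secondary and 5.50 ± 0.08 (SD, n = 3) in tertiary gliomas, and the shift of 0.38 did not pass (exact two-sided permutation p = 0.114, adjusted over 3 contrasts 0.171). For Pdgfb minus Pdgfa the shift was -0.69 (exact permutation p = 0.114, adjusted 0.171). Pdgfd minus Pdgfc, the remaining contrast, is not given, because Pdgfd was under the dim filter in all 7 samples. The smallest p that the 35 splits allow is 0.0286, and these values compare changes, not levels.

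Markers of microglia and macrophages, and some of mature oligodendrocytes, were lower in the tertiary gliomas, as Pdgfb and Pdgfa were. The sort for EGFP, which is carried on the PDGF-B transcript, is a gate for cells that carry the transgene. In the secondary gliomas the microglia and macrophage markers Ctss, C1qb and Csf1r had means of 12.23, 12.30 and 12.19, against a dim filter of 3.99. How far the sorted samples held other cells was not tested. In sorted bulk samples such as these, fewer cells of a type and less RNA per cell cannot be told apart. All 17 measured markers of microglia and macrophages were called lower in tertiary gliomas by limma, where 6.33% of all genes tested were called lower. Itgam and Adgre1, under the dim filter in all 3 tertiary samples, passed it only through the secondary gliomas, so nothing is read from their calls. Mrc1 kept its call in 3 of the 7 fits without 1 sample. The median log2 fold change of the 17 was -4.23 against 0.09 over all genes tested. Their mean log2 level ranged from 9.98 to 10.79 in the secondary and from 5.72 to 6.59 in the tertiary gliomas. Among the secondary gliomas the mean was lowest in secondary glioma 1 and highest in secondary glioma 3, and so was the level of Pdgfb. Among the tertiary gliomas the order was opposite. The marker mean was 6.44, 6.59 and 5.72 in tertiary gliomas 1 to 3, where Pdgfb read 5.52, 5.31 and 5.71. The part of these markers in the Pdgfb and Pdgfa results was not tested.

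Markers of mature oligodendrocytes were lower too, with a mean level of 8.05 to 8.94 in secondary against 6.67 to 7.24 in tertiary gliomas. Limma called 3 of 8 lower, where 6.33% of all genes tested were called lower. These were Mog, Mag and Ermn, the last in only 1 of the 7 fits without 1 sample. Oligodendrocyte precursor markers, among which Pdgfra itself was not counted, had 0 of 11 called by limma, where 7.38% of all genes tested were called. At an unadjusted p under 0.05, 1 of the 11 passed, against 23.8% of all genes, and the median was 0.13. The mean level of these markers overlapped between groups, at 9.73 to 10.27 and 9.92 to 10.29.

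Pericytes and fibroblasts are known to carry Pdgfrb. The mean over 12 pericyte and smooth muscle markers was 4.60 to 4.87 in secondary and 4.38 to 4.46 in tertiary gliomas. That mean includes markers under the filter. Over the 9 tested markers the median log2 fold change was 0.05, against 0.09 over all genes tested, and 3 were negative. The pericyte markers Kcnj8 and Higd1b were below the filter in all 7 samples. Abcc9, Vtn and Anpep were below it in all 3 tertiary samples. Limma called 2 of the 9 tested, Abcc9 and Anpep, but both passed the filter only through the secondary gliomas, so nothing is read from that count. Fibroblast markers had 0 of 6 called by limma and 1 at an unadjusted p under 0.05, where 7.38% and 23.8% of all genes were. Their mean was highest, at 6.49, in secondary glioma 3, the sample with the most Pdgfrb. Col1a1, the brightest fibroblast marker, was at 8.99 in that sample and between 5.71 and 7.46 in the others. Fbln1, the next brightest, was lowest in that sample, at 5.58 against 6.11 to 7.88 in the others. In tertiary gliomas 1 to 3 the order was opposite, with fibroblast marker means of 4.77, 5.23 and 5.46 and Pdgfrb at 5.65, 5.52 and 5.38. Endothelial cells and megakaryocytes, which the EGFP gate does not select for, can supply PDGF-B in the body. In limma 0 of 7 endothelial markers were called, with means of 4.24 to 4.70 and 4.03 to 4.16. At an unadjusted p under 0.05, 3 of them passed, where 23.8% of all genes did. Pecam1, 1 of these 3, was below the filter in all 3 tertiary samples. It was tested only through the secondary gliomas, so nothing is read from that count. Of the platelet and megakaryocyte markers 0 of 3 were called and 0 passed unadjusted, and Ppbp and Gp5 were below the filter in all 7 samples. Astrocyte markers had 0 of 7 called by limma and 2 at an unadjusted p under 0.05, neuron markers 0 of 6 and 0, and lymphocyte markers 0 of 3 and 0. Aldh1l1, 1 of the 2 astrocyte markers, had a tertiary mean of 3.78, under the filter. Over all genes tested 7.38% were called and 23.8% passed unadjusted, so lists this short allow no reading of these counts. The part of these cell types in the PDGF values was not tested.

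**Figure D3:**
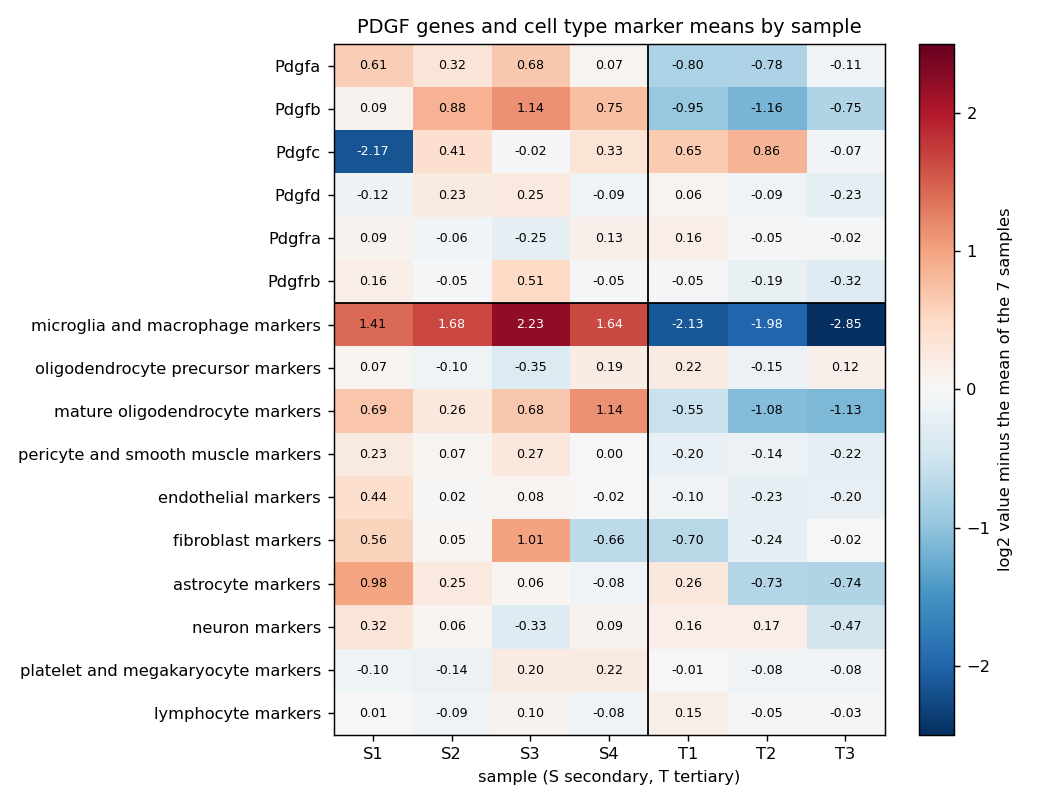
Log2 value of each PDGF gene (upper block) and mean log2 level of each cell type marker list (lower block) in each sample, minus the mean of the 7 samples (colour and printed number). Pdgfb and Pdgfa share the direction of the microglia and macrophage row and of the mature oligodendrocyte row. The first row runs from 2.23 in secondary glioma 3 to -2.85 in tertiary glioma 3. The second runs from 1.14 in secondary glioma 4 to -1.13 in tertiary glioma 3. The pericyte, endothelial, fibroblast and platelet rows are also negative in every tertiary glioma. Pdgfc is set apart by secondary glioma 1 at -2.17.

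The genes most like each member over the 7 samples were found by Pearson's r of log2 values, as a description only, since among 14453 genes high values of r arise readily with 7 points that share 2 groups. For Pdgfb they were the adhesion molecule Cadm1 (r = 0.998), Plekho2 (0.997) and the costimulatory ligand Icosl (0.996), and 351 genes exceeded 0.95. After group means were subtracted, r was 0.982 for Cadm1, 0.989 for Plekho2 and 0.972 for Icosl. These genes were picked for a high r over the same 7 samples, so this is not a separate check. For Pdgfa they were the histone gene H3f3b (0.990), the transcription factor Irf2 (0.986) and Gpbp1l1 (0.981), and 37 genes exceeded 0.95. For Pdgfra only 6 genes did, led by Map6d1 (0.960), the growth factor Bmp6 (0.959) and Rimklb (0.958). For Pdgfc they were Scnm1 (0.972), Snhg12 (0.969) and Atpaf1 (0.967), for Pdgfd, under the filter, Ppm1m (0.969), Gm5785 (0.968) and Slc35f6 (0.964), and for Pdgfrb, beside a probe annotated to a microRNA locus that is not given here, Ccdc180 (0.978) and Mgat1 (0.978).

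Genes that process or hold PDGF ligands were called lower in 5 of 13 cases and higher in 0, where 6.33% of all genes tested were called lower, with a median log2 fold change of -0.70 against 0.09. Furin, the convertase that matures the A and B chains, read 7.91 to 8.61 in secondary and 6.76 to 6.93 in tertiary gliomas (-1.34 ± 0.19 SE, adjusted p = 0.00374 in limma). Plau, the urokinase that can activate PDGF-D, read 10.02 to 10.57 and 4.40 to 5.22. Nrp1, a co-receptor for several growth factors, read 8.44 to 9.41 and 4.66 to 5.32. Sparc, a matrix protein that binds PDGF-B, read 11.41 to 12.17 and 8.23 to 10.07, and its log2 fold change of -2.58 was -1.61 with all probes averaged. The fifth, Nrp2, was chosen after its value was seen and was at -1.75 ± 0.36 (SE), with its call kept in 2 of the 7 fits without 1 sample.

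The protease Plat, which activates PDGF-C, was among the 8 not called, at 0.45 ± 0.32 (SE; adjusted p = 0.428 in limma). The microglia and macrophage markers fell alongside, by a median log2 change of -4.23, and their part in this list was not tested.

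Of the receptor kinases most closely related to the PDGF receptors, Csf1r, the receptor of macrophage growth factors and itself one of the microglia markers, fell from 12.19 ± 0.26 (SD, n = 4) to 7.96 ± 0.85 (SD, n = 3). The change was -4.23 ± 0.37 on the log2 scale (SE; adjusted p = 0.000306 in limma). Kit, the stem cell factor receptor, was at 0.03 ± 0.24 (SE; adjusted p = 0.954), and Flt3 had a mean under the dim filter.

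Adaptors and enzymes that bind the activated receptors were called lower in 3 of 21 cases and higher in 0, against 6.33% of all genes called lower, with a median of -0.06. Pik3cd, the leukocyte-enriched catalytic subunit of PI3 kinase, read 6.79 to 7.64 in secondary and 4.44 to 4.88 in tertiary gliomas. Its log2 fold change was -2.45 ± 0.22 (SE; adjusted p = 0.000363 in limma), and -1.04 with all probes averaged. The adaptors Grb2 (-0.79 ± 0.14) and Shc1 (-1.08 ± 0.25) were also lower, but kept their calls in 5 and 2 of the 7 fits without 1 sample. The count was 1 without secondary glioma 2 and 1 without tertiary glioma 3.

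Downstream effectors of Ras, Akt and Stat were called in 0 of 11 cases by limma, where 7.38% of all genes tested were called. At an unadjusted p under 0.05, 1 of the 11 passed, against 23.8% of all genes, and the median was 0.16. Only 11 of the 18 listed had a probe with a single symbol. Stat5a (-0.71 ± 0.19 SE, adjusted p = 0.0691) and Nras (0.36 ± 0.16, adjusted p = 0.234) had the lowest p, and Stat5a was called without secondary glioma 1 (adjusted p = 0.0354). Of 10 negative regulators of the receptors, 1 was called higher and 0 lower by limma (median -0.12), where 1.04% of all genes were called higher and 6.33% lower. At an unadjusted p under 0.05, 5 of the 10 passed, against 23.8% of all genes. The gene called was Acp1, a low molecular weight phosphatase, at 0.67 ± 0.15 (SE, adjusted p = 0.0351 in limma). It kept its call in 1 of the 7 fits without 1 sample and was at 0.38 with all probes averaged (adjusted p = 0.112). The count was 0 in 6 of those fits and 3 without tertiary glioma 1.

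Early response genes of growth factor signalling were called lower in 3 of 12 cases and higher in 0, against 6.33% of all genes called lower, with a median of -0.65. The chemokines Ccl2 (-1.75 ± 0.33 SE) and Cxcl1 (-2.11 ± 0.41), first isolated as PDGF-inducible genes, and the AP-1 subunit Junb (-0.96 ± 0.21) had adjusted p of 0.0179, 0.0215 and 0.0336 in limma. The Cxcl1 probe carries a suffix that marks possible cross-hybridisation. Their calls held in 5, 5 and 2 of the 7 fits without 1 sample, and the count was 1 without secondary glioma 3 and 1 without tertiary glioma 2. The classical targets Fos (-0.52 ± 0.22, adjusted p = 0.197), Egr1 (-0.32 ± 0.18, adjusted p = 0.317) and Myc (0.01 ± 0.19, adjusted p = 0.982), named after their values were seen, were not called.

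Transcription factors that act on PDGF and receptor genes were called in 0 of 14 cases by limma, where 7.38% of all genes tested were called. At an unadjusted p under 0.05, 4 passed, a share near the 23.8% of all genes, and the median was 0.13. Hif1a was at -0.58 ± 0.14 (SE; adjusted p = 0.0522) and Cebpb at -0.96 ± 0.24 (adjusted p = 0.0543). Under quantile normalization Hif1a was called (adjusted p = 0.0399). The part of the microglia and macrophage markers in the adaptor, early response and regulator lists was not tested.

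**Figure D4:**
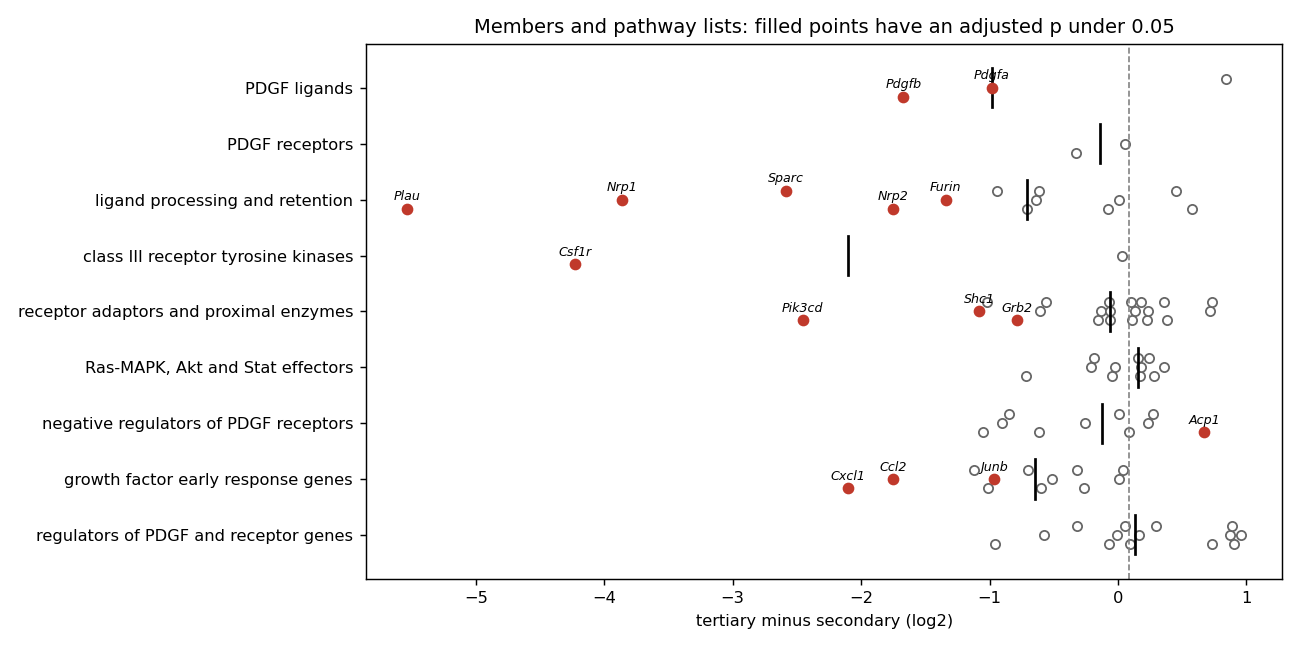
Difference between tertiary and secondary gliomas (horizontal axis, log2) of every tested gene of the PDGF ligands, the receptors and 7 pathway lists. Filled, named points have an adjusted p under 0.05 in limma, black bars are list medians and the dashed line is the median of all genes at 0.09; the filled points lie on the lower side in every list that has any, except Acp1.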

How the data were processed

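Per the labels' protocols, total RNA of 7 samples (secondary gliomas, n = 4, and tertiary gliomas, n = 3) was amplified with the Ovation Pico WTA System V2 and biotin-labelled. The deposited table holds log2 values made by the authors with RMA, per the submitters' processing notes, which name no version; the range of the values gave the log base. RMA makes array distributions alike and shrinks differences of dim probes. Detection calls and scan dates were not analysed here. Of 45101 probes, 34945 had 1 symbol, 932 several and 9160 none listed, and 64 were control probes. No column lacked a sample.

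Each gene was read from its probe with the highest mean. Genes with a mean under the 25th percentile were left out. Groups were compared with limma 3.58.1 (lmFit, eBayes) in R 4.3.3 without covariates, with Benjamini-Hochberg adjustment over all 14453 genes and a threshold of 0.05. For a member under the filter only its values are given. Within-array contrasts used exact two-sided permutation over 35 splits. Figures used matplotlib 3.10.9.

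The 6 members and all lists were chosen with earlier results of these data known. The genes named are the members, up to 4 called genes of each pathway list by lowest p (in lists with no call, the 2 of lowest p), the brightest 3 of each marker list where a value is used, and the 3 genes most like each member; others are said to be chosen after their values were seen or are named for a count.

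The test was tried on simulated data for this comparison (14434 genes). It recovered 33% of 100 genes given a log2 change of 1 and 83% of 100 given 2, with 3 false calls. The changed genes had means at least 1 above the dim filter and went up and down in equal numbers. In the data 915 of the 1066 genes called were lower, so these shares need not hold there. Recovery near the filter was not tried. Alternatives were other summaries of probes, dim filters, normalizations, variance models, array weights, a replicate block, and leaving out samples; leaving out both secondary glioma 3 and tertiary glioma 1 was chosen after seeing the data. No 2 arrays had identical values at over 5.39% of probes.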

Additional observations from a re-analysis of the deposited data

Results flagged for a closer look

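Of 27 sets of values examined in the 4 secondary gliomas (all member probes, the within-array contrasts and the marker means), 2 had a sample far from the others, where chance gives about 1 in 20. Pdgfc (probe 1419123_a_at) was at 3.54 in secondary glioma 1, and the gap to the next sample was 0.831 of the group's range against a critical value of 0.829. Pdgfra (probe 1438946_at) was at 7.58 in secondary glioma 3, with a gap of 0.899 of the range.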

How the results depend on the processing

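Pdgfb kept its direction in all 19 alternatives (log2 fold change -2.04 to -1.53, the former with its second probe, under the filter in tertiary gliomas, averaged in) and its call in 18; with the variance of each gene on its own its difference was -1.67 (adjusted p = 0.0522). Pdgfa kept its direction, but its call ended in 12. These were all probes averaged (-0.69), no dim filter (-0.98, adjusted p = 0.0530), median centring (-0.94), the variance of each gene on its own (-0.98, adjusted p = 0.139), array weights (-0.70), the replicate block (-1.10, adjusted p = 0.0584), leaving out both secondary glioma 3 and tertiary glioma 1 (-0.78), and 5 of the 7 fits without 1 sample (-1.02 to -0.87). All 7 of those fits ranged from -1.21 to -0.87. Pdgfra, never called, had a negative sign with array weights (-0.0270), without secondary glioma 3 (-0.0226), without tertiary glioma 1 (-0.0122) and without both (-0.0883); its 7 fits without 1 sample ranged from -0.02 to 0.10. The sign and side of the threshold of Pdgfc and Pdgfrb were the same in every alternative run. The 2 within-array contrasts given kept their sign, but without 1 sample or with pairs their test could not pass the threshold. The difference of Pdgfb without 1 sample ranged from -1.88 to -1.53.

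The 1066 genes called in all became 521 with the variance of each gene on its own, 1933 with array weights, 636 with the replicate block and 1610 probes with every probe tested on its own, and ranged from 647 to 1857 without 1 sample. The cause was not tested. Deviations of same-numbered samples correlated at 0.04, -0.14 and 0.01, and those of samples with different numbers at -0.24 to 0.27. Whether a tertiary glioma came from the secondary glioma of its number is not given, and these correlations cannot settle it. With the replicate block Pdgfb was at -1.66 (adjusted p = 0.0395), and the exact test of a within-array contrast over pairs could not go below 0.250. The number of arrays, and detection calls that were not analysed here, limit what can be said of probes near or under the dim filter.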
